A study of Bos indicus with 12 samples.

Results

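PDGFA, PDGFB, PDGFC and PDGFD encode the ligands of the platelet-derived growth factor (PDGF) family, and PDGFRA and PDGFRB encode its receptors. These 6 genes were taken by symbol from a table of 15178 genes of the bovine corpus luteum (CL), the gland that secretes progesterone after ovulation. Each had 1 row, and all 6 passed the filter on low values, as did 11907 genes in all. The CL came from 6 pregnant (P) and 6 non-pregnant (NP) Bos indicus cows on day 18, with 1 poly-A RNA library per cow. All cows were non-lactating and multiparous and had been synchronized for timed insemination, and their ages are not given in the sources used here. P cows were inseminated and had an elongated embryo in the uterine flush. The methods also describe a synchronized group without insemination, and the labels say of the NP cows only that they were not pregnant, so that insemination and pregnancy cannot be told apart.

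PDGF ligands are secreted as dimers. PDGF-A, PDGF-B and PDGF-C bind PDGFRA, whereas PDGF-B and PDGF-D bind PDGFRB, and binding makes the receptors, which are tyrosine kinases, phosphorylate each other and recruit signalling proteins. PDGF-A and PDGF-B are processed inside the cell, while PDGF-C and PDGF-D are released in a latent form that proteases activate outside it. In blood vessels, endothelial cells release PDGF-B, and the pericytes and smooth muscle cells that wrap the vessel carry PDGFRB. PDGFRA is best known from fibroblasts and other stromal cells. The CL is densely vascular, and its capillaries are covered by pericytes.

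Values are normalized counts, in which the reads of a gene are scaled by a DESeq2 size factor for each library. No gene length was used, so levels are compared between cows and not between genes. The libraries held 6148184 to 8253360 reads on genes in NP cows and 2038858 to 7534503 in P cows. Depth was lowest in P cow 28 (2038858 reads), P cow 18 (2589954) and P cow 01 (3152328). Genes of luteal steroidogenic cells were high in every cow, with summed levels of the 7 markers measured of 187800 to 281700 in P and 156400 to 292600 in NP cows. Among these, HSD3B1 and CYP11A1, enzymes of progesterone synthesis, had means of 97080 and 59210 normalized counts in P cows and of 67650 and 49770 in NP cows. SCARB1 and STAR had lower means in P cows, 29170 and 24850 against 46360 and 35690 in NP cows (limma adjusted p = 0.0553 and 0.156). PTGFR, the receptor for luteolytic prostaglandin F2alpha, was the 1 gene of this list that was called, at 1418 ± 615.8 in P and 4819 ± 1818 in NP cows (limma adjusted p = 0.00193).

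The PDGF family did not move as a block. PDGFB and PDGFRA were higher in the CL of P cows, PDGFC, PDGFD and PDGFRB were lower, and PDGFA did not pass the test. The receptors thus moved in opposite directions, as did the ligands PDGFB and PDGFD that share PDGFRB. In bulk tissue, fewer cells of a type and less RNA per cell cannot be told apart.

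By limma, 5 of the 6 members were called, 2 higher and 3 lower, while over all tested genes 26.8% were called, 12% higher and 14.8% lower. PDGFD had the smallest p of the family and the 234th lowest log2 fold change of the 11907 genes, and PDGFC the 295th lowest. The changes of PDGFB, PDGFRA and PDGFRB were close to the fold minimum of 0.58 on the log2 scale. Without P cows 01, 18 and 28, PDGFC and PDGFD were called and the other members were not, 2 of 6 against 12.2% of the genes tested in that comparison. Leaving out P cow 28 or NP cow 22 alone gave 2 called members, and leaving out P cow 27 or 29 gave 3.

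**Figure D1:**
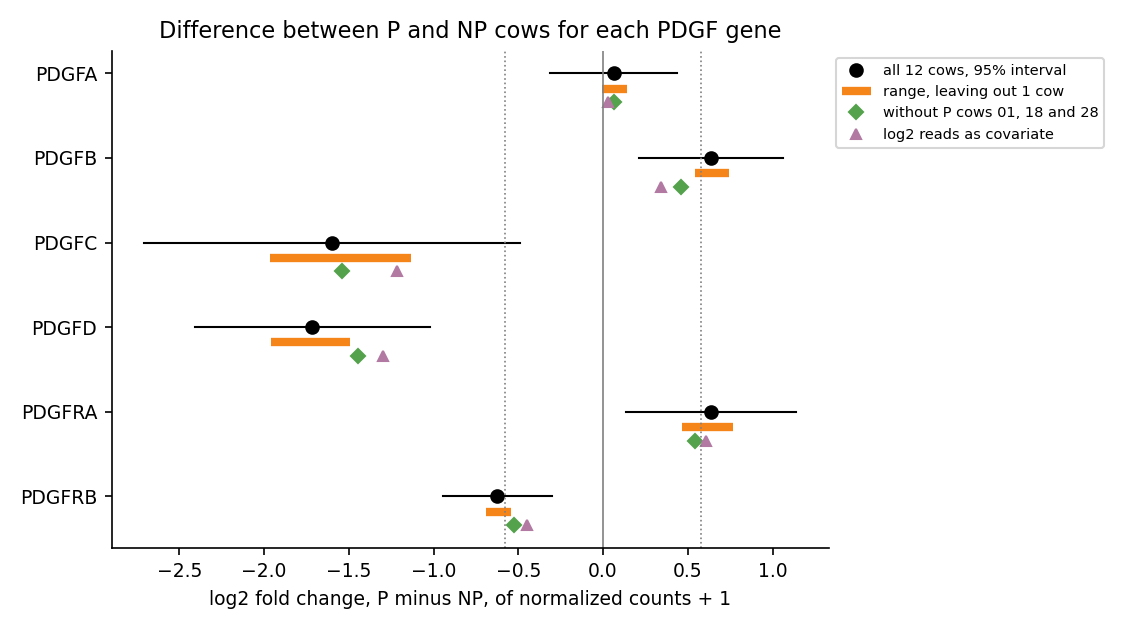
Log2 fold change (P minus NP, log2 of normalized counts + 1) of the 6 PDGF genes with the 95% limma interval over 12 cows, the range over leaving out each cow, and the values without P cows 01, 18 and 28 or with log2 reads as a covariate; dotted lines mark 0.58 in size. PDGFC (-1.60) and PDGFD (-1.71) lie far below the others, PDGFB (0.63) and PDGFRA (0.64) above 0, PDGFRB (-0.62) below it and PDGFA (0.06) at it.

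PDGFB, the ligand that vessels use to attract pericytes, rose in the CL of P cows. It ran from 487.27 normalized counts in P cow 19 to 975.05 in P cow 28, with a median of 742. In NP cows it ran from 359.58 in cow 22 to 663.16 in cow 42, with a median of 434. P cows 18, 28 and 29 lay above all NP cows, and P cows 01, 19 and 27 lay within the NP range. The means were 743 ± 224 in P and 468 ± 107 in NP cows (SD, n = 6 each), and the log2 fold change was 0.63 with an SE of 0.20 (95% interval 0.21 to 1.06, limma adjusted p = 0.0237). At 347 to 1112 reads per library, counting error was small beside the spread between cows. The call was lost when P cow 18, P cow 28, P cow 29 or NP cow 22 was left out (adjusted p = 0.0532 to 0.0582).

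PDGFA, the ligand that acts through PDGFRA alone, was the most even member. It ran from 53.64 to 84.84 normalized counts in P cows (median 66.1) and from 51.1 to 83.72 in NP cows (median 62.2). These ranges coincided almost entirely. The log2 fold change of 0.06 had a 95% interval of -0.31 to 0.43 (limma adjusted p = 0.803), an interval that leaves out a 1.5-fold change in either direction. As a share of the mean, the SD was 15.9% in P and 17.7% in NP cows. The sign of this difference turned without P cow 29 (-0.01).

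PDGFD, a PDGFRB ligand that needs cleavage to become active, fell in P cows and had the lowest log2 fold change of the family. It ran from 18.3 normalized counts in P cow 28 to 45.61 in P cow 01, with a median of 39.9. In NP cows it ran from 48.68 in cow 30 to 246.69 in cow 22, with a median of 118. The groups did not overlap, as was the case for 13.6% of the tested genes. The gap between them was narrow, and the counting interval of P cow 01 (30.3 to 65.9, from 28 reads) reaches over the value of NP cow 30. The means were 35.9 ± 10.96 in P and 127 ± 65.1 in NP cows (SD, n = 6 each), and the log2 fold change was -1.71 with an SE of 0.33 (95% interval -2.41 to -1.02, limma adjusted p = 0.00202). On this scale the level in NP cows was 3.28 times that in P cows. Leaving out any 1 cow kept PDGFD called, with log2 fold changes of -1.96 to -1.49.

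PDGFC, a latent ligand of PDGFRA, was lower in P cows except cow 01. Its lowest value was 5.23 normalized counts in P cow 28, which rests on 2 reads (counting interval 0.633 to 18.9). P cows 18, 19, 27 and 29 had 22.35 to 39.54, and P cow 01 had 110.76. NP cows ran from 56.28 in cow 30 to 166.79 in cow 22, with a median of 83.6. Of the P cows, 5 lay below all NP cows and 1 lay inside their range. The means were 41.6 ± 36.2 in P and 102 ± 49.5 in NP cows (SD, n = 6 each), and the log2 fold change was -1.60 with an SE of 0.52 (limma adjusted p = 0.0281). The interval was wide, from -2.70 to -0.49. Without P cow 01 the mean in P cows was 27.8 ± 14.2 and the log2 fold change -1.97, and without NP cow 22 or 42 the call was lost (adjusted p = 0.0682 and 0.0581).

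**Figure D2:**
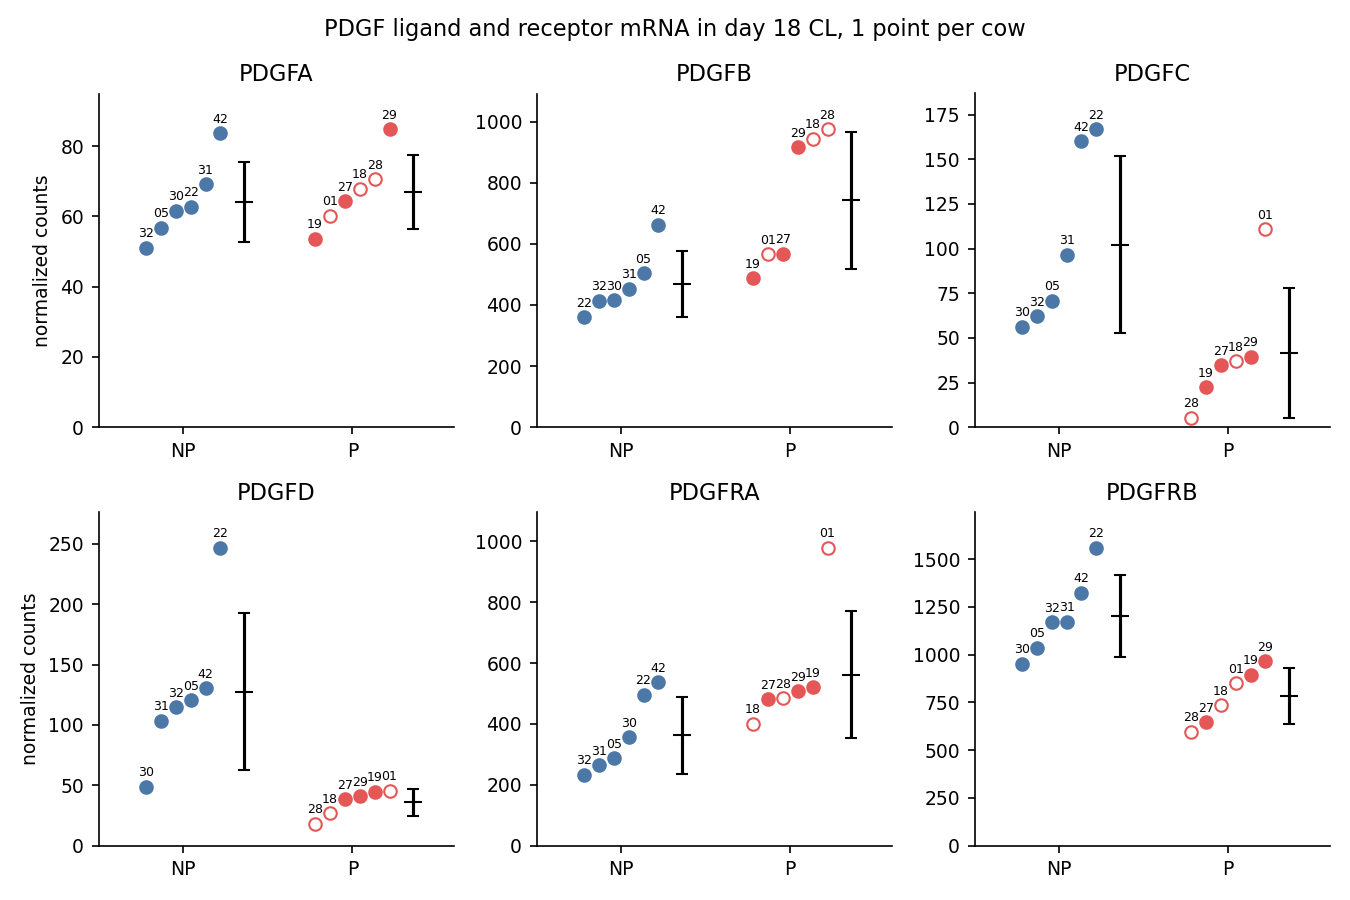
Normalized counts of each PDGF gene in 6 NP and 6 P cows, 1 point per cow with its number, with bars for mean ± SD beside each group; open points are the 3 P libraries with the fewest reads. All 6 P cows lie below the NP cows for PDGFD, and P cow 01 stands apart for PDGFC (110.76) and PDGFRA (978.9).

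PDGFRB, the receptor of pericytes and smooth muscle cells, fell in P cows. It ran from 596.01 normalized counts in P cow 28 to 967.04 in P cow 29, with a median of 793. In NP cows it ran from 952.27 in cow 30 to 1559.43 in cow 22, with a median of 1172. Only the value of P cow 29 lay above that of the lowest NP cow, and 5 P cows lay below all NP cows. The means were 782 ± 146 in P and 1203 ± 217 in NP cows (SD, n = 6 each), and the log2 fold change was -0.62 with an SE of 0.15 (95% interval -0.94 to -0.30, limma adjusted p = 0.00661). Its direction and an adjusted p of at most 0.0175 were kept whichever cow was left out, but without P cow 27, P cow 28 or NP cow 22 the change was under 0.58 in size (-0.57, -0.55 and -0.54).

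PDGFRA, the receptor of stromal cells, was higher in P cows, with the largest adjusted p of the called members. P cow 18 had the lowest value, 400.98 normalized counts, and P cows 19, 27, 28 and 29 lay close together at 481.86 to 520.8. P cow 01 stood far above them with 978.9. In NP cows PDGFRA ran from 233.73 in cow 32 to 537.59 in cow 42, with a median of 322. NP cows 22 and 42 lay among the P cows, and the other NP cows lay below every P cow. The means were 562 ± 208 in P and 363 ± 127 in NP cows (SD, n = 6 each), and the log2 fold change was 0.64 with an SE of 0.24 (95% interval 0.14 to 1.14, limma adjusted p = 0.0472). Without P cow 01 the mean in P cows was 479 ± 46.6 and the log2 fold change 0.47 (adjusted p = 0.0969). The call was also lost with edgeR (TMM, adjusted p = 0.0631) and when P cow 19, 27, 28 or 29 or NP cow 05, 30, 31 or 32 was left out, while the direction stayed the same.

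Ratios within a cow do not depend on the scaling of the library. Those between PDGF genes carry the same differences as the levels above and were not tested. PDGFB relative to PDGFRB, its receptor on mural cells, ran from 0.544 to 1.64 in P cows and from 0.231 to 0.501 in NP cows, with no overlap. The lowest P value was that of cow 19 and the highest NP value that of cow 42. PDGFD relative to PDGFRB ran the other way, from 0.0307 to 0.0597 in P cows and from 0.0511 to 0.158 in NP cows, with 4 P cows below all NP cows.

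On the side of PDGFRA, the PDGFC to PDGFRA ratio was 0.0108 to 0.113 in P cows and 0.158 to 0.365 in NP cows, again with no overlap. P cow 01, which was high in both genes, had the ratio of 0.113 and so also lay below all NP cows. The PDGFA to PDGFRA ratio overlapped, at 0.0616 to 0.169 in P and 0.126 to 0.262 in NP cows. The balance of the receptors, chosen for description after their values were seen, lay at 0.525 to 1.15 for PDGFRA relative to PDGFRB in P cows and at 0.2 to 0.406 in NP cows. In the deeper P libraries of cows 19, 27 and 29 it was 0.582, 0.746 and 0.525, all above the NP cows. On the log2 scale its mean was -0.52 ± 0.43 in P and -1.78 ± 0.40 in NP cows (SD, n = 6 each).

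**Figure D3:**
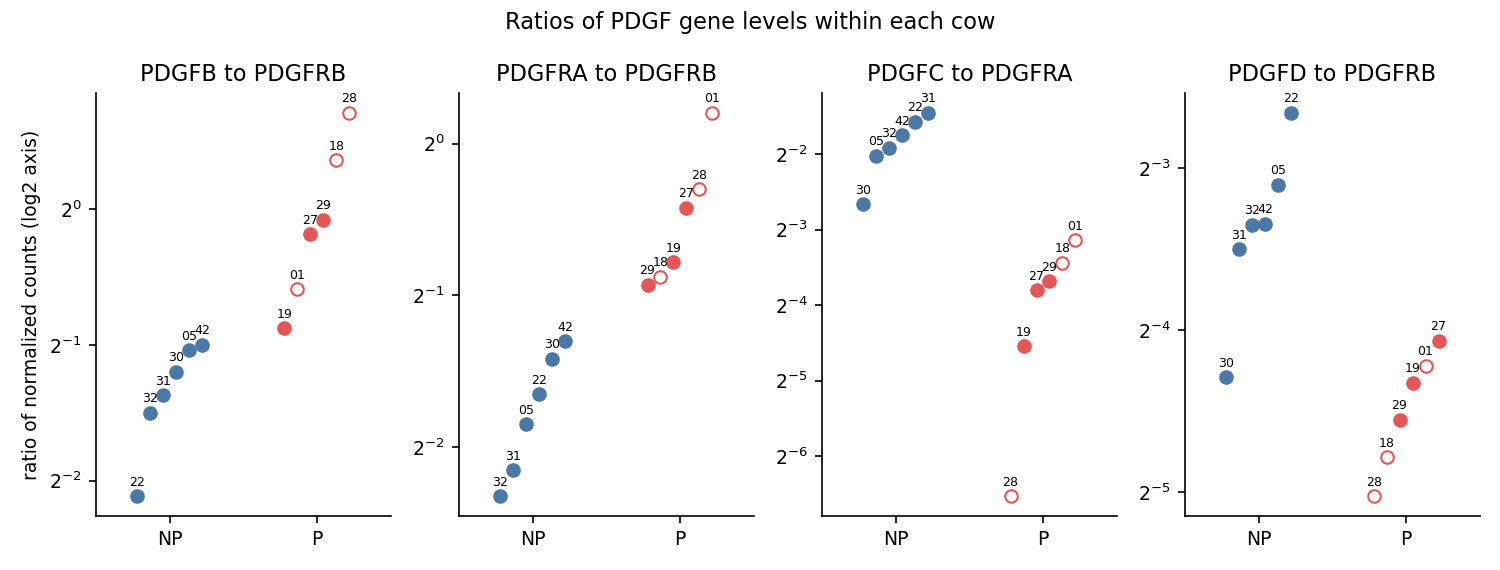
Ratios of normalized counts within each cow on a log2 axis for 4 pairs of PDGF genes, 1 point per cow with its number; open points are the 3 P libraries with the fewest reads. PDGFB to PDGFRB and PDGFRA to PDGFRB lie higher in all 6 P cows than in any NP cow, PDGFC to PDGFRA lies lower in all, and PDGFD to PDGFRB overlaps through NP cow 30.

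Depth differed between the groups, and the members moved with it to different degrees. PDGFB had a mean of 828 ± 228 normalized counts in the 3 P libraries of lowest depth and of 657 ± 228 in the other 3, and PDGFD had 30.2 ± 14.0 and 41.5 ± 3.07 (SD, n = 3 each). PDGFRB had 727 ± 127 and 836 ± 168 in the same order. All 3 genes were thus farther from the NP cows in the libraries of low depth, whereas PDGFA had 66.2 ± 5.35 and 67.6 ± 15.9. P cow 01 widened the spread of PDGFC (51.0 ± 54.1 and 32.2 ± 8.85) and PDGFRA (621 ± 313 and 503 ± 19.8). When every library was thinned to the reads of the smallest, 5 members were still called. With the log2 reads as a covariate in limma 0 members were called, 2 (PDGFD and PDGFRB) had an unadjusted p under 0.05, and PDGFD came nearest with a log2 fold change of -1.30 (adjusted p = 0.0636). Since the libraries of lowest depth were all from P cows, depth and group cannot be told apart among them.

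**Figure D4:**
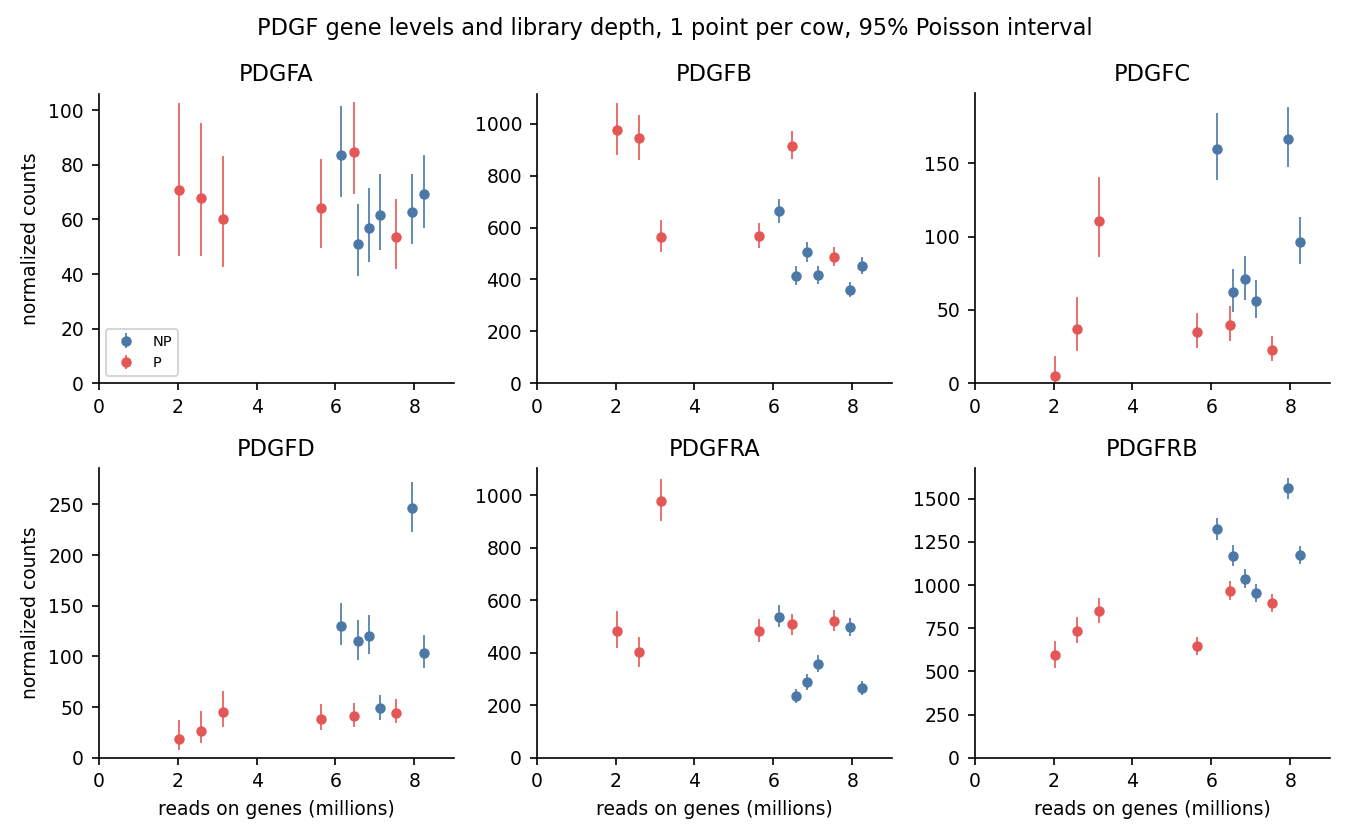
Normalized counts of each PDGF gene against the reads on genes of the library, 1 point per cow (NP blue, P red), with 95% exact Poisson intervals that cover counting error only. The 3 P libraries at the left, of 2038858 to 3152328 reads, include the lowest values of PDGFC (5.23), PDGFD (18.3) and PDGFRB (596.01) and the highest of PDGFB (975.05).

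Within the groups, no relation between PDGF genes passed adjustment. The 42 relations computed paired the members with each other and with log2 reads over the 6 cows of a group, and 4 had an unadjusted Pearson p under 0.05 (exact permutation tests, two-sided, smallest adjusted p = 0.335 for Pearson and 0.49 for Spearman). The closest relation was that of PDGFC and PDGFRB in NP cows, with r = 0.89 (exact permutation p = 0.0181) and rho = 0.94 (exact permutation p = 0.0167), and r = 0.80 without the 2 cows farthest from the median of PDGFRB. In P cows PDGFA and PDGFB had r = 0.81 (exact permutation p = 0.0292) and rho = 0.83 (exact permutation p = 0.0583), and r = 0.74 without the 2 cows farthest from the median of PDGFB. The other 2, both in NP cows, weakened without the 2 farthest cows, PDGFRB and PDGFD from r = 0.89 (exact permutation p = 0.0306) to 0.33 and PDGFD and PDGFC from r = 0.75 (exact permutation p = 0.0319) to 0.45. Their rho values were 0.77 (exact permutation p = 0.103) and 0.83 (exact permutation p = 0.0583). All genes of a cow share 1 library and its depth.

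The genes most like each member were ranked by Pearson r over the 12 cows after the group means were removed, among 7117 genes with a symbol and a mean of at least 100. This is a description of shared variation between cows and libraries, with no test. PDGFB was most like CCL2, which encodes a chemokine that attracts monocytes (r = 0.92, rho = 0.94), and INKA1 (r = 0.91). PDGFC was most like TUBB, a tubulin (r = 0.96), COL6A3, a collagen VI chain (r = 0.94), and SULF2, which trims heparan sulfate (r = 0.92). PDGFD was most like SKI, a repressor of SMAD signalling (r = 0.94), FKBP9 (r = 0.93) and NUP98, a nuclear pore protein (r = 0.92). All 3 of the genes nearest to PDGFD were called lower in P cows too.

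PDGFRA was most like BEX3 (r = 0.93), TPM1, a tropomyosin (r = 0.88), and LTBP1, which tethers latent TGFB in the matrix (r = 0.87). None of these was called. For BEX3 the rank correlation was lower (rho = 0.68). PDGFRB was most like KDM4A, a histone demethylase (r = 0.91), GPATCH2L (r = 0.90) and TRIM24 (r = 0.89), and PDGFA was most like C1QTNF5 (r = 0.89), the laminin chain gene LAMA4 (r = 0.86) and the kinase gene LYN (r = 0.86). None of these 6 genes was called either, although KDM4A had an adjusted p of 0.0374 with a fold change under the minimum.

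Around the ligands, proteases and binding proteins were lower or did not pass. Of the pathway lists, 1 of 5 proteases, 4 of 7 binding proteins and 8 of 27 docking proteins were called. So were 2 of 11 brakes and 3 of 13 genes of induced transcription. Over all tested genes 26.8% were called, and the lists other than the binding proteins are near or below this share. Of 5 tested genes for proteases that process PDGFs, 1 fell and 0 rose (median log2 fold change -0.13, against -0.01 over all tested genes). The gene that fell was PLAT, tissue plasminogen activator, which activates latent PDGF-C. Its mean was 1067 ± 175 normalized counts in P cows and 1877 ± 457 in NP cows (SD, n = 6 each; log2 fold change -0.79, SE 0.18, adjusted p = 0.00446), and it did not pass without P cows 01, 18 and 28 (adjusted p = 0.0709). PLAU, the plasminogen activator that can cleave PDGF-D, did not pass (log2 fold change -0.16, adjusted p = 0.586).

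Of 7 genes for proteins that bind PDGFs or assist their receptors, 4 fell and 0 rose (median log2 fold change -0.71). A2M, a circulating protease inhibitor that also binds PDGF-B, fell most. It ran from 1326 to 6735 normalized counts in P cows (median 2870) and from 7595 to 17780 in NP cows (median 11780), without overlap (log2 fold change -2.06, SE 0.38, adjusted p = 0.00174). NRP2, a neuropilin, fell from 160 ± 96.7 to 56.9 ± 16.7 (adjusted p = 0.00867), and LRP1, an endocytic receptor that associates with PDGFRB, from 1427 ± 335 to 880 ± 251 (adjusted p = 0.0127). CSPG4, the NG2 proteoglycan of pericytes, fell from 207 ± 88.5 to 122 ± 33.9 (adjusted p = 0.0289), a call lost without NP cow 42 or P cow 18. When P cows 01, 18 and 28 were left out, A2M (log2 fold change -1.23, a smaller change than over all cows) and NRP2 (-1.44) were still called, and LRP1 (-0.52) and CSPG4 (-0.62) were not.

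Among 27 tested genes for proteins that dock on active PDGF receptors, 7 fell, 1 rose and 19 were not called (median log2 fold change -0.03). The called share is near the 26.8% over all tested genes. The adaptor gene CRK ran from 282 to 400 normalized counts in P cows (median 322) and from 434 to 631 in NP cows (median 527), without overlap (log2 fold change -0.64, SE 0.13, adjusted p = 0.00258). The SRC family kinase gene YES1 fell from 363 ± 65.0 to 216 ± 48.8 (adjusted p = 0.0044) and the adaptor gene NCK2 from 341 ± 33.5 to 200.6 ± 59.7 (adjusted p = 0.00506). PLCG1, the phospholipase that turns receptor activity into calcium and lipid signals, was the gene that rose, with 1106 ± 235 in P and 720 ± 64.4 in NP cows (log2 fold change 0.59, adjusted p = 0.00725). It fell under the fold minimum when P cow 01, 18 or 28 or NP cow 05, 31 or 42 was left out (0.53 to 0.58). Without P cows 01, 18 and 28 together, 4 genes of this list fell and 0 rose, against 12.2% called over all genes tested there.

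Against 26.8% called over all tested genes, 2 of 11 genes that restrain PDGF receptors fell and 0 rose (median log2 fold change -0.14). They were PTPRJ, a receptor phosphatase (from 41.7 ± 23.1 to 11.9 ± 7.32, adjusted p = 0.00822), and SPRY4, an inhibitor of RAS signalling (from 51.3 ± 30.6 to 19.3 ± 11.4, adjusted p = 0.0373). Neither was called without P cows 01, 18 and 28, and SPRY4 was also lost when any of 7 single cows was left out. Among 13 genes of PDGF-induced transcription, 2 rose and 1 fell (median -0.04), a count near the share over all tested genes. ELK1, the factor that pairs with SRF after MAP kinase activation, fell from 265 ± 44.3 to 135 ± 32.3 without overlap (log2 fold change -0.99, SE 0.17, adjusted p = 0.0014). The immediate early genes JUNB and IER2 rose, from 601 ± 213 to 1081 ± 260 (adjusted p = 0.00725) and from 318 ± 73.3 to 479 ± 66.7 (adjusted p = 0.00962). IER2 was below the fold minimum with edgeR and TMM (0.57) and without any of 5 single cows. When P cows 01, 18 and 28 were left out, ELK1 still fell, while JUNB (log2 fold change 0.74, adjusted p = 0.0804) and IER2 (0.47, adjusted p = 0.116) were not called. FOSB, named after its values were seen, was called higher in that comparison (1.61, limma adjusted p = 0.0463) and by edgeR over all cows (1.80, adjusted p = 0.025), but not by limma over all cows (1.18, adjusted p = 0.178).

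**Figure D5:**
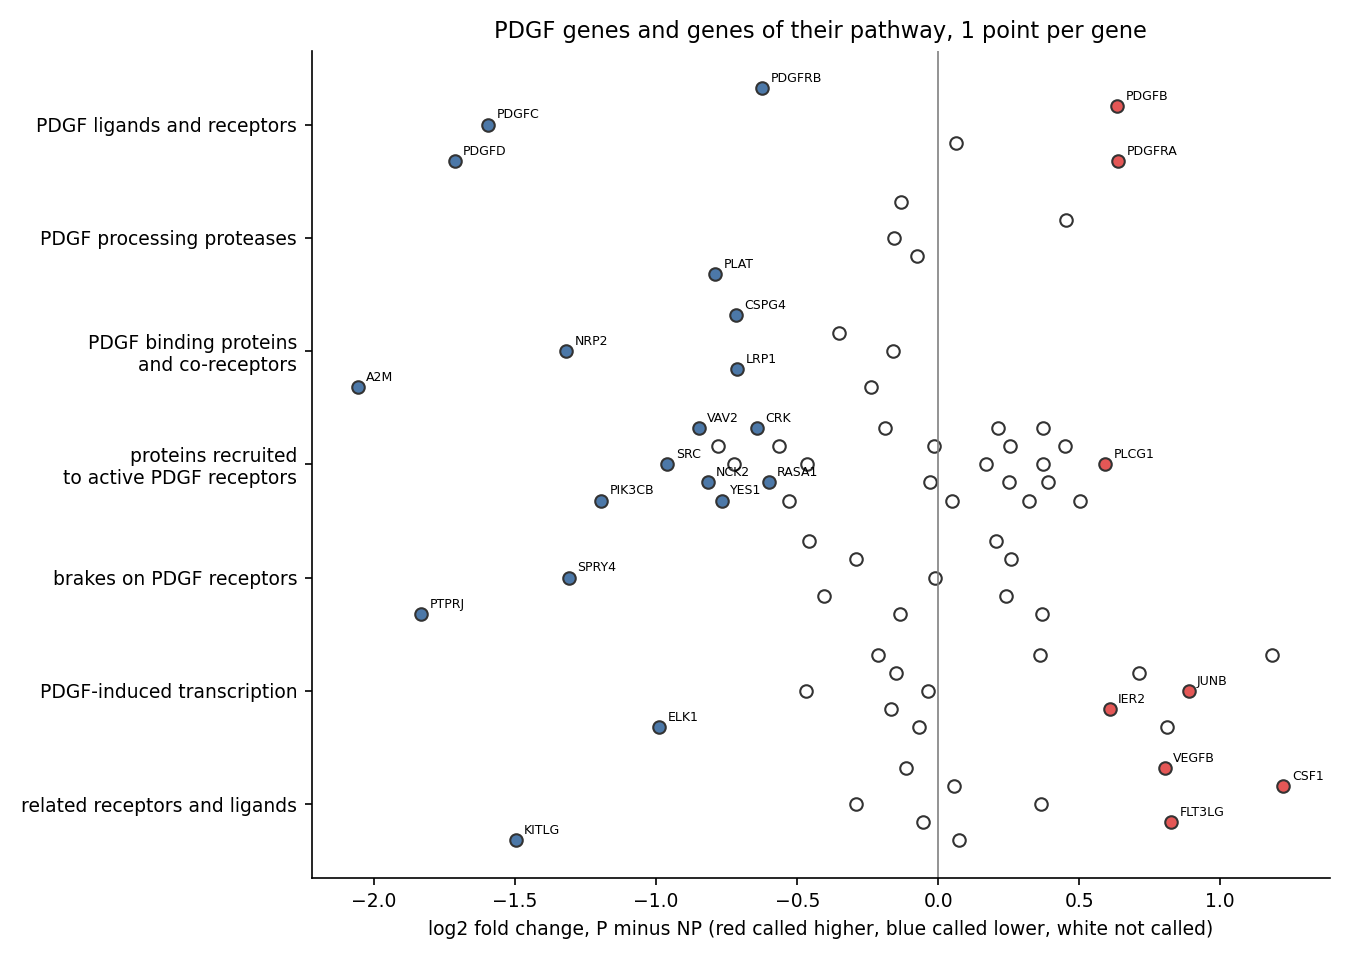
Log2 fold change (P minus NP, log2 of normalized counts + 1) of the PDGF genes and of 6 lists of related genes, 1 point per tested gene; red points were called higher in P cows, blue points lower, and white points were not called. Binding proteins and docking proteins show more blue than red points (4 against 0 and 7 against 1), and the PDGF genes lie on either side of 0. Over all tested genes 14.8% were called lower and 12% higher.

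Markers of the cells that make or sense PDGFs did not follow the PDGF genes as whole lists. Of 12 tested markers of pericytes and smooth muscle, 4 rose and 2 fell (26.8% of all tested genes were called), and their summed level ran from 6109 to 15100 normalized counts in P and from 5143 to 13620 in NP cows. MCAM fell from 301 ± 113 to 109 ± 51.9 (adjusted p = 0.0042), and CNN1, a marker of contractile muscle, rose from 125 ± 75.9 to 296 ± 144 (adjusted p = 0.0215). ACTA2 and MYH11, a smooth muscle actin and myosin, had means of 4284 and 1657 in P and of 3117 and 877 in NP cows, and of these MYH11 was called higher (adjusted p = 0.0269). The remaining called markers were DES and KCNJ8, which rose, and ABCC9, which fell. Their log2 fold changes were 1.45, 0.61 and -1.92 (limma adjusted p = 0.0332, 0.0217 and 0.0252). With P cows 01, 18 and 28 left out, MCAM was the marker still called, while CNN1 (log2 fold change 1.30, against 1.28 over all cows) and MYH11 (0.82, against 0.92) kept similar values at adjusted p = 0.0778 and 0.11.

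Of 10 endothelial markers, 2 fell and 0 rose, against 26.8% called in either direction over all tested genes. Their summed levels were 4008 to 9782 in P and 6361 to 10640 in NP cows. Their median log2 fold change was -0.41, against -0.01 over all tested genes. PECAM1 ran from 18.3 to 144 in P cows (median 59.7) and from 205 to 669 in NP cows (median 311), and CDH5 fell from 1007 ± 259 to 454 ± 167 (adjusted p = 0.00134 and 0.00218). KDR, a VEGF receptor of endothelial cells, was at 2997 ± 1226 in P and 2609 ± 711 in NP cows (adjusted p = 0.697). The other markers, KDR among them, make up the 8 that were not called. Of these, CLDN5 was at 719 ± 239 in P and 634 ± 105 in NP cows. TIE1 was at 706 ± 242 and 703 ± 183 and ESAM at 351 ± 94.8 and 448 ± 81.4 in the same order. VWF, EMCN, TEK and ERG were lower in P cows without a call. Their log2 fold changes were -0.55, -0.51, -0.44 and -0.22 (limma adjusted p = 0.126, 0.0889, 0.124 and 0.443). The part of endothelial cell number in the PDGFB values was not tested.

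Among 9 fibroblast markers 1 fell and 0 rose, against 26.8% called over all tested genes. Their summed levels coincided (31640 to 74410 in P and 34020 to 82790 in NP cows). LUM, a collagen-binding proteoglycan, was the gene that fell, from 6996 ± 1449 to 2692 ± 1519 (adjusted p = 0.003). DPT was higher in P cows without a call, at 514 ± 140 against 348 ± 109 in NP cows (adjusted p = 0.063). The median log2 fold change of the 9 markers was -0.002. COL1A1 and COL3A1, genes of fibrillar collagens, had means of 22060 and 15130 in P and of 18890 and 15520 in NP cows. Of 7 tested leukocyte markers, CD3E and NKG7 rose (adjusted p = 0.012 and 0.023) and 0 fell, a count near the share over all tested genes. CD68 was at 108.6 ± 33.5 in P and 194.8 ± 90.1 in NP cows (adjusted p = 0.144). The summed levels of the leukocyte markers were 627 to 1104 in P and 447 to 1124 in NP cows. Neither CD3E (adjusted p = 0.0571) nor NKG7 (0.0671) was called without P cows 01, 18 and 28, and NKG7 was also lost without P cow 18 (0.0506) or NP cow 22 (0.055). Platelets, which store PDGFs, could be followed by 1 tested marker. ITGA2B, the platelet integrin chain, ran from 170 to 296 in P and from 76.8 to 120 in NP cows without overlap (log2 fold change 1.33, SE 0.18, adjusted p = 0.000729). Of the other platelet markers, PF4, PPBP, GP1BA, GP1BB and GP9 had no row under these symbols. TREML1 was near 0 (0.578 ± 0.909 in P and 1.91 ± 3.11 in NP cows), and the part of platelets in the PDGFB values was not tested.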

How the data were processed

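Each cow gave 1 single-end library of poly-A RNA from the CL. The authors used cutadapt for trimming, STAR for mapping to ARS-UCD1.2 (2.4.2a, from the submitters' processing notes), htseq-count for reads per Ensembl gene (strand setting not given in the sources used here) and DESeq2 size factors for scaling. These deposited values, a signal in normalized counts, cover 15178 genes. Columns with the authors' own fold changes and p-values were not used.

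The main test was limma 3.58.1 in R 4.3.3 on log2(value + 1), with a variance trend, over the 11907 genes that reached 30 in 1 or more cows. The Benjamini-Hochberg adjustment ran over all of them. A gene was called when its adjusted p was below 0.05 and its log2 change was 0.58 or more in size, the thresholds of the study. The test was checked on simulated data. Values of each library were whole multiples of the value of 1 read (at least 99.99% within 0.0051), and the reads so recovered served the alternatives with edgeR 4.0.16, DESeq2 1.42.0 and voom. Other alternatives changed the filter, pseudocount, fold minimum, depth and libraries. Counting intervals are exact Poisson intervals at 95%, which cover counting error only.

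The members and lists were chosen with earlier results of these data known. Named beside the members are, for each pathway list, up to 4 called genes with the smallest p, for each marker list the 2 genes with the smallest p and the 2 with the highest mean, and the 3 genes most like each member, of which 1 is not reported here. Means for this choice were in counts not scaled for gene length. Of these, the 27 called genes chosen by p were put through the same alternatives, an addition made after the data were seen. PLAU, KIT, CSF1R, FOSB, STAR, CLDN5, TIE1, ESAM, VWF, EMCN, TEK, ERG, DES, KCNJ8 and ABCC9 were named outside this choice, with their values known. Listed symbols without a row are not analysed here.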

Additional observations from a re-analysis of the deposited data

Results flagged for a closer look

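P cow 01 stood apart from the other P cows in 2 of the 12 sets of 6 cows examined (6 genes in each group). PDGFC had 110.76 normalized counts in this cow against 5.23 to 39.54 in the other P cows, a gap of 0.675 of the whole range, and PDGFRA had 978.9 against 400.98 to 520.8, a gap of 0.793. Both gaps are above Dixon's 95% critical value for 6 samples. Chance alone flags about 1 set in 20.

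The same library had the highest summed level of pericyte and smooth muscle markers among the P cows (15100 normalized counts) and the lowest of endothelial markers (4008), with fibroblast markers at 72110. It is 1 of the 3 libraries of low depth. The part of these features in its PDGFC and PDGFRA values was not tested.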

How the results depend on the processing

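Each member was recomputed under 26 alternatives, 12 of which left out 1 cow. PDGFD kept its call in 25, PDGFC in 23, PDGFRB in 21, PDGFB in 20 and PDGFRA in 9, and PDGFA was never called. With log2 reads as a covariate 510 of all genes and 0 members were called, and the log2 fold changes were 0.34 for PDGFB, -1.22 for PDGFC, -1.30 for PDGFD, 0.61 for PDGFRA and -0.45 for PDGFRB. Without P cows 01, 18 and 28 the counts were 1410 and 2, and PDGFB (0.46), PDGFRA (0.54) and PDGFRB (-0.53) were not called. In that comparison 0 of the proteases, 2 of the binding proteins, 4 of the docking proteins and 0 of the brakes were called. So were 2 genes of induced transcription and 1 of the related receptors and ligands, against 12.2% of all genes tested. PDGFRA was not called by edgeR with TMM (0.61), relative log expression (0.64) or upper quartile factors (0.57), by voom (0.63), without a variance trend or without a filter on low values (0.64 in both). With upper quartile factors PDGFA turned to -0.0052. Leaving out 1 cow gave 2 to 4 called members (each omission lost at least 1 call) and log2 fold changes of -0.0087 to 0.1408 for PDGFA, 0.54 to 0.74 for PDGFB, -1.97 to -1.13 for PDGFC, 0.47 to 0.77 for PDGFRA and -0.69 to -0.54 for PDGFRB. The 27 other genes tested by name gave 701 values under the same alternatives (PTPRJ was not tested under the stricter filter), of which 637 kept direction and call, 64 lost the call and 0 turned. The causes of these shifts were not tested. No paired analysis was possible because the groups share no cow numbers. PDGFC and PDGFD rest on 2 to 68 and 7 to 60 reads per P library, which limits their precision.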

Other observations

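Among relatives of the PDGF family, most tested genes were ligands, and so were the called genes. Of 10 tested genes for class III receptor tyrosine kinases, their ligands, VEGF ligands and the receptor-like protein PDGFRL, 3 rose and 1 fell, against 26.8% called in either direction over all tested genes. CSF1, the growth factor of macrophages, ran from 228 to 399 normalized counts in P and from 94.3 to 208 in NP cows without overlap (log2 fold change 1.22, SE 0.20, limma adjusted p = 0.00128), and it was called without P cows 01, 18 and 28 too (adjusted p = 0.0172). FLT3LG, a cytokine of dendritic cell precursors, rose from 104 ± 14.9 to 189 ± 57.7 (adjusted p = 0.00436), and VEGFB from 346 ± 92.5 to 593 ± 76.9 (adjusted p = 0.003). KITLG, the ligand of KIT, ran from 20.6 to 37.1 in P and from 41.8 to 241 in NP cows, also without overlap (log2 fold change -1.50, adjusted p = 0.00625). Their receptors KIT and CSF1R were not called (adjusted p = 0.882 and 0.297). Without P cows 01, 18 and 28, FLT3LG missed the fold minimum (log2 fold change 0.57, limma adjusted p = 0.0429), while VEGFB (0.64, adjusted p = 0.0544) and KITLG (-1.42, adjusted p = 0.0594) missed the threshold on p.

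In the RefSeq gene table of another Bos indicus assembly, 1 non-coding RNA gene overlaps PDGFB, 1 overlaps PDGFC, and 1 non-coding RNA gene and the protein-coding gene DDI1 overlap PDGFD, while none overlaps PDGFA, PDGFRA or PDGFRB. The strand setting of the counting is not given in the sources used here, so reads of such neighbours and of the PDGF genes cannot be told apart.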
